A study of Mus musculus with 6 samples.

Results

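The tripartite motif (TRIM) genes of the mouse were followed through osteoclast formation, from bone marrow monocytes to cells exposed to RANKL for 5 days. Members were the rows of the expression table whose symbol is Trim followed by a number and whose transcript types include protein-coding, which gave 57 of 28795 genes. One further row, Trim69, carries such a symbol but no protein-coding transcript and was left out. Of the 57 genes, 34 had at least 1 FPKM (a fragment level scaled for gene length and library depth) in at least 3 of the 6 libraries and were tested, and 23 were not.

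The day 5 group was 3 libraries of bone marrow monocytes after 5 days with 50 ng/ml RANKL, the cytokine that turns macrophage-lineage precursors into bone-resorbing osteoclasts. The day 0 group was 3 libraries of such cells at the start of the exposure. Both were grown with 50 ng/ml M-CSF, which keeps macrophage-lineage cells alive. Since RANKL stands as the treatment in the labels of both days, grouping followed the labelled time. The labels give no strain, sex or age of the mice and do not state whether replicates are separate cultures or animals, so the spread behind each p-value may be technical. Cells kept for 5 days without RANKL were not analysed here, so RANKL and days in culture cannot be told apart.

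TRIM proteins share a zinc-binding RING domain, B-box domains and a coiled coil, and most act as E3 ubiquitin ligases, which pass ubiquitin from an E2 enzyme to a chosen protein. The end of the protein, often a SPRY domain, picks the target. Many SPRY members are known as interferon-inducible restriction factors or regulators of antiviral sensing in macrophages. Other branches work in chromatin (Trim24, Trim28 and Trim33), on the sarcomere and microtubules of muscle (Trim54, Trim55 and Trim63) or without a RING (Trim14, Trim16, Trim29 and Trim44).

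The day 5 libraries held 70888492 to 73234377 deposited counts each, and the day 0 libraries 64616609 to 82721513. Small counts piled up at multiples of 4 (5021 values of exactly 4, against 2196 of 3 and 1488 of 5), so 1 sequenced fragment appears to be worth about 4 counts. The summed level of 9 osteoclast markers was 10975 to 11761 FPKM at day 5, against 142 to 200 FPKM at day 0. All 9 were called higher by the test described below, against 5.84% of all tested genes. Of the 9, Calcr and Oscar reached 1 FPKM in day 5 libraries only, so they were tested through the day on which they are high. The summed level of 9 monocyte and macrophage markers was 4697 to 5539 FPKM at day 5, against 12057 to 14504 FPKM at day 0. Most of that sum was Lyz2 (4133, 3461 and 3649 FPKM at day 5, against 12778.5, 13049.1 and 10571.8 FPKM at day 0). Of the 9, 6 were called lower by the test described below, against 6.47% of all tested genes. Cd68 was higher in every day 5 library than in every day 0 library, and for Ptprc the days overlapped. Stromal and osteoblast markers were also present, with sums of 1231 to 1328 FPKM at day 5 and 1607 to 2322 FPKM at day 0. The gene model CT010467 took 4.09% of the counts of day 0 replicate 1, and 0.158% to 0.507% in the other libraries.

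The family as a whole kept a similar level, with a few members lower and 1 far higher. Expression of TRIM genes summed to 264, 255 and 259 FPKM in the day 5 libraries, against 264, 289 and 287 FPKM in the day 0 libraries. Of the 34 tested genes, 6 were called, meaning that edgeR's quasi-likelihood test over all genes gave an adjusted p (Benjamini-Hochberg) below 0.05 and that the level differed at least 2-fold. Over all 11908 tested genes the share called was 12.3%. The 5 called lower, against a background of 6.47%, were Trim30d, Trim21, Trim34a, Trim30a and Trim14. The single one called higher, against a background of 5.84%, was Trim54. On the adjusted p alone 19 of the 34 passed, a share of 55.9% that lies near the 55.5% of all tested genes. Of these, 17 were lower (28.8% of all tested genes were) and 2 higher (26.6%). In scaled counts the libraries of the days did not overlap for 20 of the 34 genes, against 63.3% of all tested genes. The median log2 difference was -0.24 over the tested TRIM genes and -0.0041 over all tested genes.

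**Figure D1:**
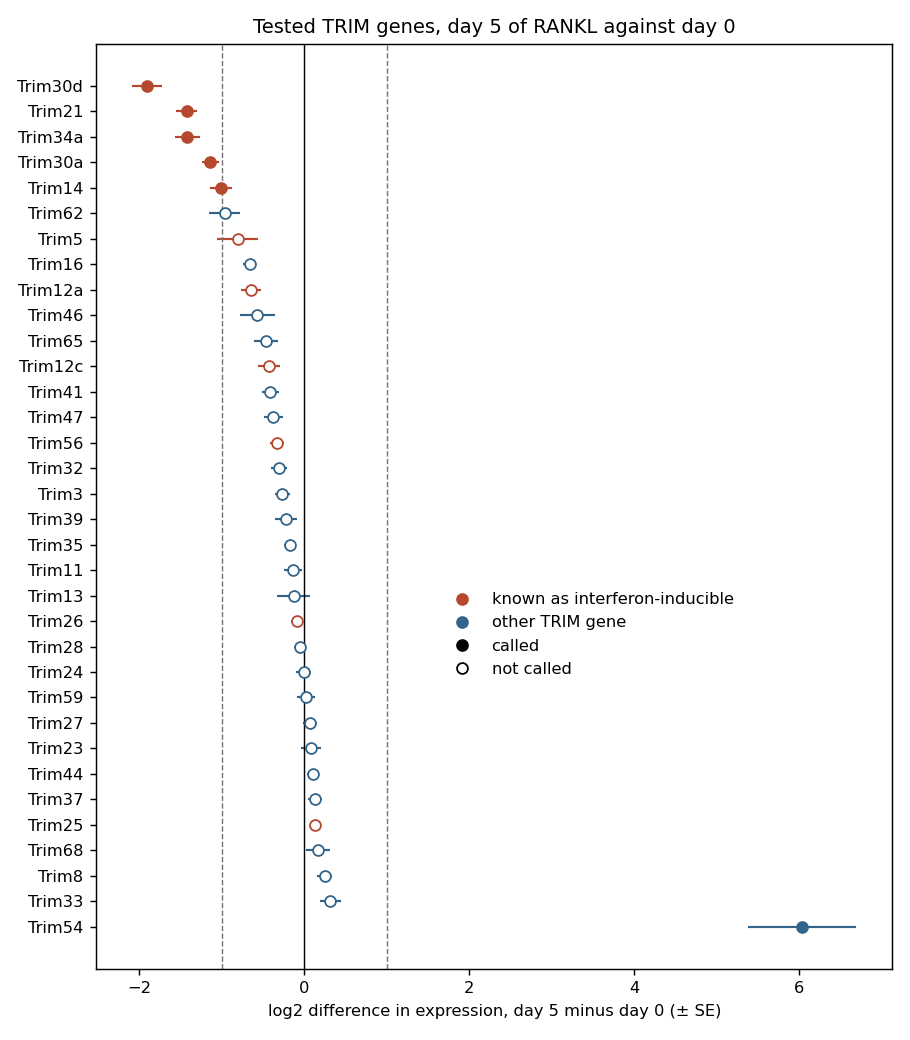
Log2 difference in expression (x axis, day 5 minus day 0, ± SE) of the 34 tested TRIM genes, from the lowest at the top to the highest at the bottom, with dashed lines at -1 and 1. Filled points are called genes: 5 genes known as interferon-inducible lie left of -1, and Trim54 lies alone at 6.03.

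The TRIM genes known as interferon-inducible were lower at day 5 for part of their members. Of 15 such genes, a list drawn from background knowledge with earlier results of these data known, 11 were tested, 5 fell (6.47% of all tested genes did), 0 rose and 6 were not called. Their median log2 difference was -0.81, against -0.13 over the 23 tested TRIM genes outside the list, of which 1 rose and 0 fell. On the adjusted p alone 9 of the 11 were lower, and 8 of the other 23, against 28.8% of all tested genes. One of the 9, Trim5, passed the filter through day 0 alone. In these bulk libraries fewer cells of a type and less RNA per cell cannot be told apart.

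Among the tested members Trim30d fell most. This paralogue of Trim30a (ENSMUSG00000057596, chromosome 7, 104470014 to 104507849, minus strand, in coordinates that match build GRCm38) had 1.02, 0.72 and 1.17 FPKM at day 5, against 3.17, 3.39 and 3.96 FPKM at day 0. All day 5 libraries lay below all day 0 libraries, a 3.75-fold lower level with a log2 difference of -1.91 ± 0.18 (SE, edgeR adjusted p = 4.33e-06). Trim21, a cytosolic receptor for antibodies that marks antibody-coated viruses for the proteasome (chromosome 7, 102557921 to 102565486), had 1.64, 1.63 and 1.98 FPKM at day 5, against 4.90, 4.72 and 3.98 FPKM at day 0. Its log2 difference was -1.43 ± 0.13 (adjusted p = 3.86e-06), with no overlap between the days. Trim34a, whose human relative TRIM34 acts on retroviral capsids (chromosome 7, 104244457 to 104262234), had 2.25, 1.78 and 1.72 FPKM at day 5, against 4.33, 5.40 and 5.06 FPKM at day 0. The log2 difference of Trim34a was -1.42 ± 0.15 (adjusted p = 1.18e-05).

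Trim30a, which in mouse macrophages restrains NF-kB signalling by driving the loss of TAB2 and TAB3, was the most abundant of the 5 (chromosome 7, 104409025 to 104465193). It had 5.34, 4.22 and 5.52 FPKM at day 5, against 10.30, 10.69 and 10.90 FPKM at day 0. The groups did not overlap, and the log2 difference was -1.14 ± 0.10 (adjusted p = 3.60e-06). Trim14, a member without a RING that in human cells serves as an adaptor of the antiviral protein MAVS (chromosome 4, 46493781 to 46536122), had 1.82, 1.97 and 1.61 FPKM at day 5, against 2.93, 3.76 and 3.79 FPKM at day 0. Its log2 difference of -1.01 ± 0.14 (adjusted p = 7.17e-05) lay just past the size threshold. The call of Trim14 was lost without day 0 replicate 2 (-0.95), day 0 replicate 3 (-0.93) or day 5 replicate 3 (-0.93). Its exons also overlap those of Nans on the other strand over 31.3% of their length, and Nans averaged 14.7 FPKM, so the counts of Trim14 are uncertain.

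**Figure D2:**
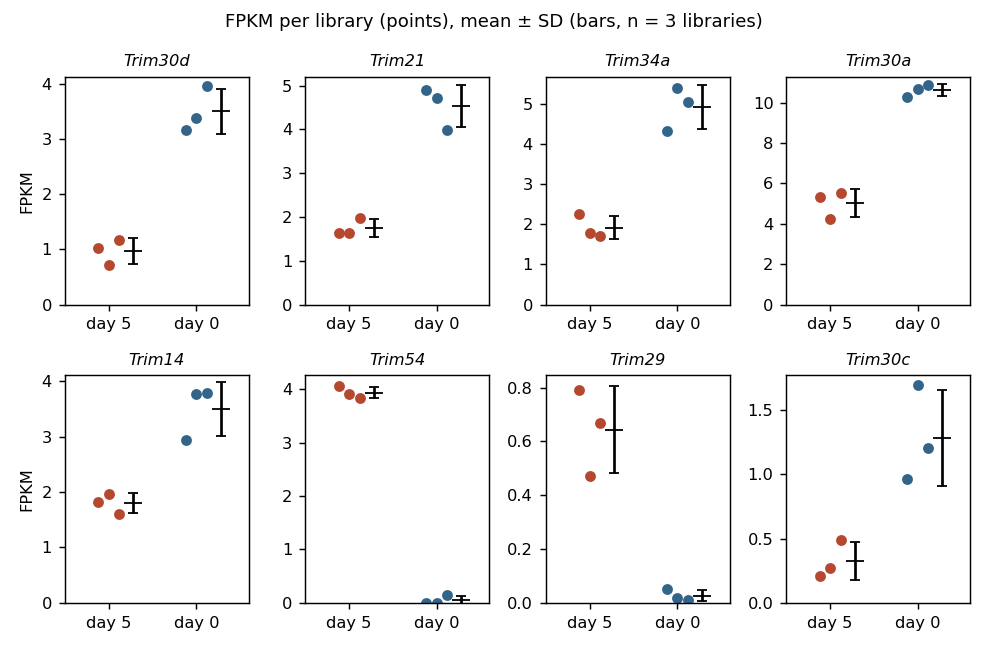
FPKM (y axis, from 0) in each of 3 libraries per day for 8 TRIM genes, with the mean ± SD (n = 3) beside the points. Trim30d, Trim21, Trim34a, Trim30a, Trim14 and Trim30c are lower in every day 5 library than in every day 0 library, and Trim54 and Trim29 are higher in every day 5 library.

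Below the size threshold, 4 further members of that list passed the adjusted p, and 2 did not pass it. Trim5, Trim12a and Trim12c, mouse relatives of the human retroviral restriction factor TRIM5, had log2 differences of -0.81 ± 0.25 (adjusted p = 0.0169), -0.65 ± 0.12 (adjusted p = 8.65e-04) and -0.43 ± 0.13 (adjusted p = 0.0178). Trim5 had 0.45, 0.53 and 0.90 FPKM at day 5, against 1.08, 1.04 and 1.04 FPKM at day 0, and without day 5 replicate 3, its highest library of that day, the log2 difference was -1.14, past the size threshold. Trim56, a ligase that acts in cytosolic RNA and DNA sensing, had one of -0.33 ± 0.08 (adjusted p = 0.00670). Trim25, the ligase known for activating the RNA sensor RIG-I, was the most abundant gene of the list and the one tested member of it with a difference above 0. It had 16.55, 15.53 and 15.64 FPKM at day 5, against 13.78, 14.17 and 13.78 FPKM at day 0, a log2 difference of 0.13 ± 0.06 that did not pass (adjusted p = 0.0969). Trim26, which in human cells takes part in interferon signalling, had 9.27, 8.69 and 8.96 FPKM at day 5, against 8.68, 9.30 and 9.49 FPKM at day 0. The days overlapped for Trim26, and its log2 difference was -0.09 ± 0.07 (adjusted p = 0.275).

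The promoters of the genes that fell are shown because most of them hold the same short motif. RefSeq windows on build GRCm38.p6, from 250 bases before to 50 bases after the annotated start, matched 43 of the 57 genes by symbol. The motif searched was GAAA, any 2 bases and GAAA again, the core of the interferon-stimulated response element. It was searched on both strands (as TTTC, any 2 bases and TTTC on the other) and is in capitals, with overlapping matches joined.

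Trim21 (chr7:102565433-102565732, minus strand): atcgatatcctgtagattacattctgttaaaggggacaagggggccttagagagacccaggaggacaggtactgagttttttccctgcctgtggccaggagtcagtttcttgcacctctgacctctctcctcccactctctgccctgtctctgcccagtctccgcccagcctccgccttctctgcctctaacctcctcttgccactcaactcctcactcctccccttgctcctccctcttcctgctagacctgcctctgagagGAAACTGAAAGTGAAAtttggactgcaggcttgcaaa
Trim30a (chr7:104465144-104465443, minus strand): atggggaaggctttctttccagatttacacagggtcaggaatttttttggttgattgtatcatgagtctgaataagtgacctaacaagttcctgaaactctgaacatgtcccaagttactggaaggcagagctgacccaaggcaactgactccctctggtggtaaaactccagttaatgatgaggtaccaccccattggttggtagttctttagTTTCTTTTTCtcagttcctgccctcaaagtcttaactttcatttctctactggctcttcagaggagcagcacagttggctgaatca
Trim30d (chr7:104507800-104508099, minus strand): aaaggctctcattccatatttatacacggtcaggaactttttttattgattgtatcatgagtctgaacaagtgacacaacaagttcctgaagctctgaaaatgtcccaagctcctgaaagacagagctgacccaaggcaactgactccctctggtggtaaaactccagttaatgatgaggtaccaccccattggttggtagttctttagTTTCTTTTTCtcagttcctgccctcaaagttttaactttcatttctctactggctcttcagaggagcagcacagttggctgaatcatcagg
Trim34a (chr7:104244207-104244506, plus strand): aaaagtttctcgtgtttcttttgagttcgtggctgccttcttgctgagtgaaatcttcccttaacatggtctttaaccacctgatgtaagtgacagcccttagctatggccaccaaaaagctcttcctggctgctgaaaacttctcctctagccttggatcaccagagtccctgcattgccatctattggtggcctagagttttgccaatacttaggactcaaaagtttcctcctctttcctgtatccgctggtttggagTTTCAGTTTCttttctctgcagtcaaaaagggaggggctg
Trim26 (chr17:36836896-36837195, plus strand): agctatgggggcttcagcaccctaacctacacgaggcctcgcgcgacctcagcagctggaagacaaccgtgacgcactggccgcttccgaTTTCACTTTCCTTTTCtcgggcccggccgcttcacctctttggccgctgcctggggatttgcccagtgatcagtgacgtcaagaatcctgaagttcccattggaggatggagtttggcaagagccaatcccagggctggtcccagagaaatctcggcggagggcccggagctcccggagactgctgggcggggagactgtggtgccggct

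All 4 genes called lower that had a window, Trim21, Trim30a, Trim30d and Trim34a, held the motif. It was present in 8 of the 14 matched genes of the interferon-inducible list and in 1 of the 29 other matched TRIM genes, Trim2, against 3.99% of the 27018 genes with a window. The other holders in the list were Trim5, Trim12a, Trim12c and Trim26. The windows of Trim30b, Trim30c and Trim67, genes called lower only with looser filters, held no match. Trim26 and Trim21 each have 2 overlapping matches, and Trim26 did not pass the test. Trim21 holds the motif as GAAA and the other 4 as TTTC. These holders are not all independent examples. The windows of Trim30a and Trim30d share an unbroken run of 118 bases that contains the motif, and those of Trim5 and Trim12a one of 241 bases that contains it. Trim12c shares a run of 71 bases, without the motif, with both Trim5 and Trim12a. The longest run that Trim21 shares with Trim30a or Trim30d is 8 bases. A second motif, TTCNNNGAA, reads the same on both strands and is bound by STAT dimers. It was in none of the windows of Trim21, Trim30a, Trim30d and Trim34a. This second motif was in 2 of the 14 matched genes of the list, Trim30c and Trim38, and in 3 of the 29 others. Of all genes with a window 9.55% held it. These matches are a description of letters, and no binding was measured.

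Of the 10 TRIM genes clustered on chromosome 7 between 104218793 and 104507849, a span of 289.1 kb, 6 were tested, and the 6 were lower at day 5 on the adjusted p alone, against 28.8% of all tested genes. Of the 6, Trim5 passed the filter through day 0 alone, and Trim5 and Trim12c lost the adjusted p with 3 and 4 of the 6 left-out libraries. Of the 6, 3 fell past the size threshold (Trim34a, Trim30a and Trim30d), and the median log2 difference of the 6 was -0.98. The cluster's summed level was 11.9 to 15.9 FPKM at day 5, against 26.8 to 29.1 FPKM at day 0. Among the 6 the log2 differences ran between -1.91 for Trim30d and -0.43 for Trim12c, and differences between these genes were not tested. None of the 7 other table genes of the interval was tested, the most abundant having a mean of 0.482 FPKM.

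Paralogues of the cluster share sequence, which limits how far their counts can be kept apart. Of the 75-base words in its transcripts, Trim34a shares 29.5% with other genes, mostly Trim34b, and Trim34b shares 42.5%. The share was 20.6% for Trim5 and 16.9% for Trim12c, each mostly with the other, and 5.40% for Trim30d and 4.98% for Trim30a. Trim21, which shares no such word and lies outside the cluster, was lower as well. Its neighbour Trim68, 112 kb away on the same strand, had 1.87, 1.93 and 1.80 FPKM at day 5, against 1.70, 1.67 and 1.43 FPKM at day 0 (log2 0.16 ± 0.15, adjusted p = 0.370).

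**Figure D3:**
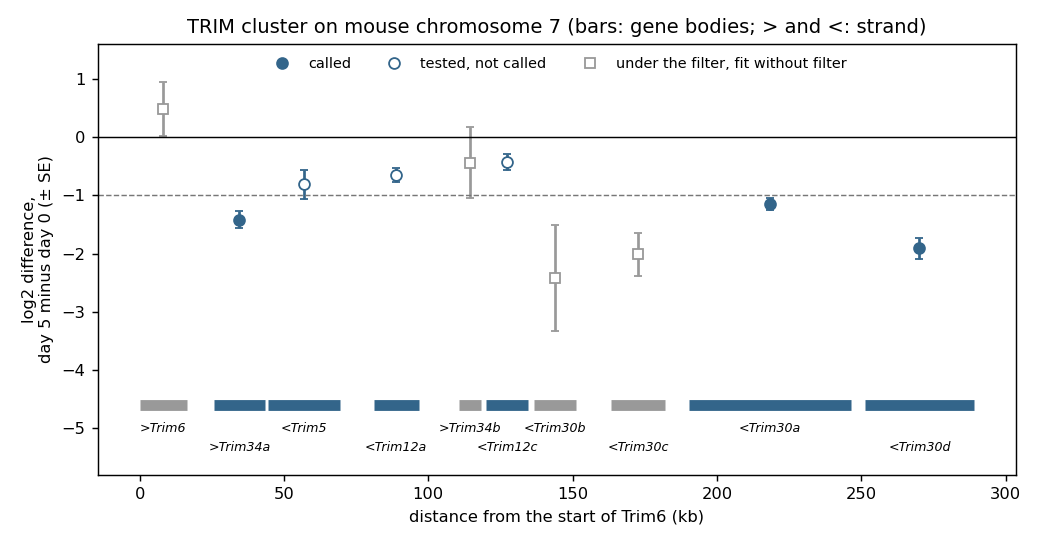
Log2 difference (y axis, day 5 minus day 0, ± SE) of the 10 TRIM genes of the chromosome 7 cluster against distance from the start of Trim6 in kb, with gene bodies as bars. Filled circles are called (Trim34a, Trim30a and Trim30d), open circles were tested and not called, and grey squares, under the filter on low levels, come from a fit without that filter.

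Beside them, genes under the filter included a further Trim30 paralogue. Trim30c, which shares no 75-base word with other genes, had 0.21, 0.27 and 0.49 FPKM at day 5, against 0.96, 1.69 and 1.2 FPKM at day 0. It reached 1 FPKM in 2 libraries and missed the filter by 1. With a filter at a mean of 0.3 FPKM it fell 4.08-fold (log2 -2.03 ± 0.36, adjusted p = 7.56e-04), a call lost by limma on log2(FPKM + 1) (-0.78). Trim30b, Trim34b and Trim38, also on the interferon-inducible list, stayed at or under 0.51 FPKM in every library. The days overlapped for Trim34b and Trim38. Trim30b had 0.04, 0 and 0.02 FPKM at day 5, against 0.14, 0.10 and 0.08 FPKM at day 0, and was called lower with edgeR's filterByExpr (log2 -2.43 ± 0.85, adjusted p = 0.0410) but not without a filter (adjusted p = 0.0943). Trim6, at the edge of the cluster, had 0.10, 0.20 and 0.12 FPKM at day 5 and 0.05, 0.13 and 0.11 FPKM at day 0.

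Trim54 was the only TRIM gene called higher among those tested. It encodes MuRF3, a microtubule-binding protein of striated muscle (ENSMUSG00000062077, chromosome 5, 31116712 to 31137630, plus strand). Its level was 4.05, 3.91 and 3.84 FPKM at day 5, against 0, 0 and 0.15 FPKM at day 0, where 2 libraries listed it at 0. In counts these were 441, 415 and 410 at day 5 and 0, 0 and 19 at day 0. The fitted log2 difference was 6.03 ± 0.66 (edgeR adjusted p = 1.42e-05), but with so few day 0 counts its size depends on the fit. It was 2.24 by limma on log2(FPKM + 1) and 6.20 by DESeq2, and without day 0 replicate 3, when the remaining day 0 libraries are at 0, no fold can be given. Trim54 reached 1 FPKM in day 5 libraries only and Trim5 in day 0 libraries only, so each was tested through the day on which it is high.

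The other muscle TRIM genes stayed under the filter. Trim72, whose product MG53 takes part in membrane repair, had 0.10, 0.18 and 0.04 FPKM at day 5 and was listed at 0 in all day 0 libraries. Trim63, encoding the atrophy ligase MuRF1, had 0.04, 0.07 and 0.04 FPKM at day 5 and 0, 0.02 and 0 FPKM at day 0. Trim55, the third MuRF gene, was listed at 0 outside day 5 replicate 2, where it had 0.01 FPKM.

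Most muscle transcripts were higher along with Trim54. The 13 muscle markers in the table summed to 15.6 to 27.4 FPKM at day 5, against 9.08 to 10.8 FPKM at day 0, most of it Acta1, the skeletal actin. For 11 of the 13 all day 5 libraries lay above all day 0 libraries, most of them at levels under the filter. For Actn3 and Myh4 the days overlapped. Of all tested genes 63.3% did not overlap between the days, counting both directions. Actn3, a fast-fibre actinin, had 0.67, 1.21 and 0.72 FPKM at day 5, against 0.91, 0.65 and 0.97 FPKM at day 0. Of the 2 that were tested, Des (desmin) was called higher but passed the filter through day 5 alone, and Acta1 passed the adjusted p without reaching 2-fold. Ckm, the muscle creatine kinase, had 0.81, 2.26 and 1.22 FPKM at day 5, against 0, 0 and 0.11 FPKM at day 0. Myh3, Myog and Myh2 were listed at 0 in all day 0 libraries. Among the day 5 libraries Ckm ran between 0.81 and 2.26 FPKM while Trim54 stayed between 3.84 and 4.05 FPKM, and Trim54 lay above Ckm in all 3. Day 0 replicate 3, the one day 0 library with Trim54, was also the one with Ckm. At day 0 Actn2, Myh1 and Myh4 had counts in that library alone. Ttn was listed above 0 FPKM only there, but had counts of 6, 10 and 61 in the day 0 libraries. Acta1, Des, Actn3, Myh6 and Myh7 were above 0 in all day 0 libraries, with Des lowest in replicate 3. The part of muscle RNA in the rise of Trim54 was not tested.

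Trim29, a member without a RING that is known from basal epithelia and from airway macrophages, was also higher at day 5, at levels below the filter. It had 0.79, 0.47 and 0.67 FPKM at day 5, against 0.05, 0.02 and 0.01 FPKM at day 0. The days did not overlap, and with the filter at a mean of 0.3 FPKM the gene rose 22.5-fold (log2 4.49 ± 0.51, adjusted p = 2.46e-05), a call lost by limma on log2(FPKM + 1) (0.67). Trim29 passed that filter through day 5 alone, and the size of the fold rests on day 0 counts of 13, 4 and 4.

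Basal epithelial transcripts moved with Trim29. The 6 epithelial markers summed to 29.4 to 41.4 FPKM at day 5, against 0.02 to 0.32 FPKM at day 0. Krt14, a keratin of the basal layer, had 30.04, 20.05 and 21.33 FPKM at day 5, against 0, 0 and 0.19 FPKM at day 0. Its partner keratin Krt5 had 10.40, 8.16 and 8.25 FPKM at day 5, against 0.07, 0.02 and 0 FPKM at day 0. Both keratins, the 2 tested markers, were called higher, but each passed the filter through the day 5 libraries alone. Krt18 was listed at 0 in every library, and Krt8 was listed at 0 in all day 0 libraries. The day 5 library highest in Krt14 and Krt5, replicate 1, was also the highest in Trim29. Cdh1 was highest there as well, while Epcam was lowest there (0.60 FPKM, against 0.78 and 0.73 FPKM) and Krt8 was listed at 0. At day 0 Krt5 and Trim29 were both highest in replicate 1, with counts of 11 and 13. Krt14 was listed above 0 at day 0 only in replicate 3, where Trim29 had 4 counts, as in replicate 2. At about 4 counts per fragment these day 0 levels are too low to compare libraries. The part of epithelial RNA in the rise of Trim29 was not tested.

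**Figure D4:**
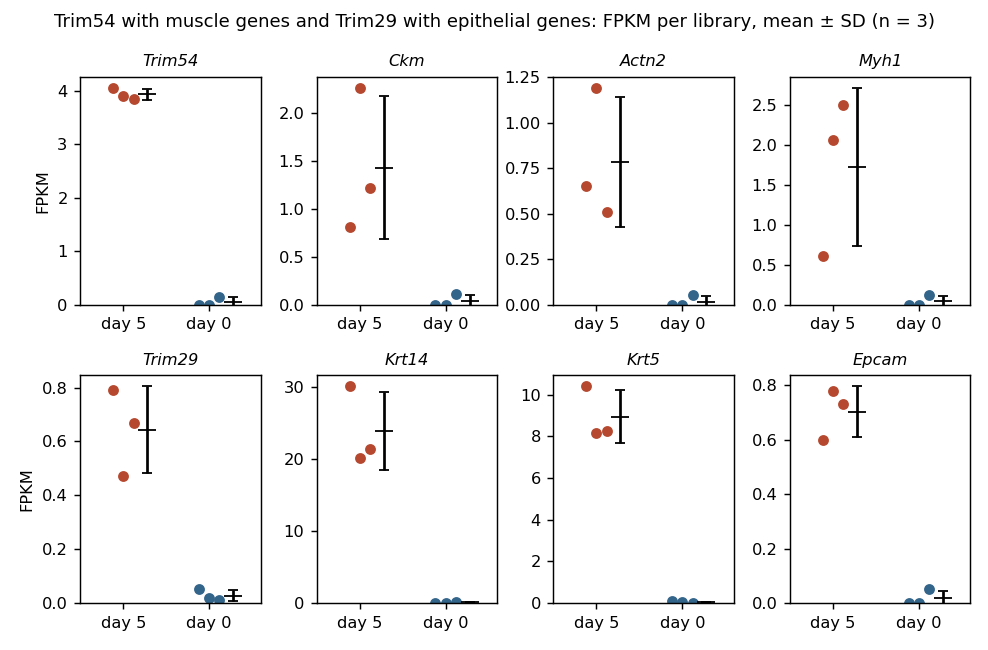
FPKM (y axis, from 0) per library with the mean ± SD (n = 3), day 5 left of day 0. The upper row sets Trim54 (3.84 to 4.05 FPKM at day 5) beside the muscle genes Ckm, Actn2 and Myh1, and the lower row sets Trim29 beside the epithelial genes Krt14, Krt5 and Epcam, each higher at day 5. Not shown are the markers for which the days overlapped, Actn3 and Myh4 of muscle and Krt8 and Krt18 of epithelium.

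The most abundant members differed little between the days. Trim28, the corepressor KAP1 that KRAB zinc finger proteins recruit to silence retroelements, had 47.02, 45.22 and 43.65 FPKM at day 5, against 42.71, 45.23 and 47.40 FPKM at day 0 (log2 -0.05 ± 0.07, adjusted p = 0.519). Trim35, a SPRY-domain ligase, had 37.90, 38.89 and 36.88 FPKM at day 5, against 37.22, 46.01 and 39.76 FPKM at day 0 (log2 -0.17 ± 0.08, adjusted p = 0.0805). Together these genes made up 31.1% to 32.9% of the family's summed FPKM at day 5 and 30.3% to 31.6% at day 0. The 8 most abundant, which also include Trim8, Trim44, Trim25, Trim41, Trim47 and Trim26, held 62.3% to 64.9% at day 5 and 58.7% to 59.6% at day 0.

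Trim8, a ligase that acts on TAK1 in TNF signalling in human cells, was the other gene higher on the adjusted p alone. It had 23.37, 20.96 and 19.66 FPKM at day 5, against 15.65, 16.83 and 19.29 FPKM at day 0 (log2 0.25 ± 0.09, adjusted p = 0.0397). After scaling of the counts the days overlapped for Trim8, and its adjusted p was 0.108 without day 0 replicate 1, 0.0873 without day 0 replicate 2, 0.164 without day 5 replicate 1, 0.0748 without day 5 replicate 2 and 0.0592 with a replicate block. Trim44, a RING-less member with a ubiquitin-protease-like zinc finger, had 18.01, 18.23 and 19.83 FPKM at day 5, against 15.74, 16.86 and 17.45 FPKM at day 0, without passing (log2 0.10 ± 0.06, adjusted p = 0.202). Trim41 (log2 -0.41 ± 0.10, adjusted p = 0.00545) and Trim47 (log2 -0.38 ± 0.12, adjusted p = 0.0177) were lower, both under the size threshold. The days overlapped for Trim47, which lost the adjusted p with 4 of the 6 left-out libraries.

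No chromatin-binding member was called by edgeR at the size threshold or on the adjusted p alone, and 1 of the 3 tested had an unadjusted p under 0.05. That one, Trim33, which binds modified histones and acts in TGF-beta signalling, had 3.11, 2.92 and 3.93 FPKM at day 5, against 2.53, 2.20 and 2.92 FPKM at day 0 (log2 0.32 ± 0.13, adjusted p = 0.0574). Trim24, a coregulator of nuclear receptors, had 2.25, 2.33 and 2.30 FPKM at day 5, against 2.14, 2.18 and 2.32 FPKM at day 0 (log2 -0.01 ± 0.09, adjusted p = 0.938). At the size threshold DESeq2 and limma called none of the 3 either. Trim66, a relative found in germ cells, stayed between 0.30 and 0.47 FPKM and was not tested.

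Other ligases outside the interferon-inducible list were lower by less than the size threshold. Trim62, a SPRY-domain ligase known for a role in epithelial polarity, was nearest to the threshold. It had 1.31, 0.86 and 0.96 FPKM at day 5, against 1.69, 2.31 and 1.89 FPKM at day 0, with no overlap (log2 -0.97 ± 0.18, adjusted p = 9.61e-04). Without day 0 replicate 1 its log2 difference was -1.04 and without day 5 replicate 1 it was -1.17, both past the threshold. Trim16, a RING-less protein that works with galectin-3 in the clearance of damaged lysosomes, had 5.34, 4.86 and 5.31 FPKM at day 5, against 7.49, 8.13 and 7.93 FPKM at day 0 (log2 -0.66 ± 0.08, adjusted p = 3.98e-05). Trim65, a ligase of the RNA sensor MDA5, was lower by less (log2 -0.47 ± 0.14, adjusted p = 0.0165). Trim46, a microtubule organiser of axons, was lower with overlapping days (log2 -0.57 ± 0.22, adjusted p = 0.0432). The exons of Trim65 and Trim47 overlap on the same strand, so their counts are uncertain there. The NHL-repeat members Trim32 and Trim3 had log2 differences of -0.31 ± 0.09 (adjusted p = 0.0159) and -0.27 ± 0.09 (adjusted p = 0.0333). Trim46 and Trim3 each lost the adjusted p with 4 of the 6 left-out libraries, and Trim65 and Trim32 each with 2.

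By the domain at the end of the protein, the SPRY class held 18 of the tested genes, of which 4 fell (6.47% of all tested genes did), 0 rose and 11 were lower on the adjusted p alone (28.8%), with a median log2 difference of -0.42. The 4 that fell, Trim21, Trim30a, Trim30d and Trim34a, are genes already counted in the interferon-inducible list. All of them but Trim21 were also counted in the chromosome 7 cluster, so these groupings are not separate evidence. Both RING-less SPRY genes, Trim14 and Trim16, were lower on the adjusted p. Among members of other classes Trim37 (MATH domain), Trim23 (ARF domain), Trim13 and Trim59 (both with a transmembrane segment) had log2 differences between -0.13 and 0.13 and did not pass. The remaining tested SPRY genes, Trim39, Trim11 and Trim27, had log2 differences of -0.22 ± 0.13, -0.14 ± 0.11 and 0.07 ± 0.08, none past the adjusted p.

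Of the 23 genes that were not tested, 7 had a mean of at least 0.3 FPKM and 16 lay below it. Among the 7 besides Trim30c, Trim29 and Trim66, Trim36, which binds microtubules, was lower with the filter at 0.3 FPKM (0.63, 0.59 and 0.59 FPKM at day 5, against 1.09, 0.95 and 0.96 FPKM at day 0, log2 -0.78 ± 0.17, adjusted p = 0.00321). So was Trim7, a ligase named for binding glycogenin (log2 -0.63 ± 0.19, adjusted p = 0.0163). Trim2 and Trim45 did not pass there (adjusted p = 0.501 and 0.701). Of the 16 below, Trim67, known from neurons, was listed at 0 in all day 5 libraries and had 0.05, 0.05 and 0.02 FPKM at day 0. It was called lower without a filter (adjusted p = 0.00652) and with filterByExpr (adjusted p = 0.00213). Trim43b was listed at 0 in all libraries. The other genes of that group not yet named, Trim9, Trim10, Trim15, Trim17, Trim43c, Trim71 and Trim75, are too low to compare, and no gene of the 16 had a mean above 0.277 FPKM.

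Interferon-stimulated genes, and separately genes that TRIM ligases act on or work with, were counted from lists fixed with earlier results known. Among 22 tested interferon-stimulated genes, none of them a TRIM gene, 15 were called lower, against 6.47% of all tested genes, and 0 higher, and the median was -1.32 on the log2 scale. Of the 15, Zbp1, Cmpk2 and Xaf1 passed the filter through day 0 alone. Zbp1, a sensor of Z-form nucleic acids, had 0.48, 0.44 and 0.32 FPKM at day 5, against 2.24, 2.51 and 1.97 FPKM at day 0 (log2 -2.48 ± 0.20, adjusted p = 1.29e-06). Oasl2, an oligoadenylate synthetase-like gene, had 1.68, 1.46 and 1.75 FPKM at day 5, against 7.67, 8.23 and 9.32 FPKM at day 0 (log2 -2.42 ± 0.10, adjusted p = 8.55e-09). Ifit2, which binds RNA, had 0.08, 0.81 and 1.02 FPKM at day 5, against 2.36, 3.00 and 3.23 FPKM at day 0 (log2 -2.23 ± 0.56, adjusted p = 0.00536).

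Of 21 tested innate sensing genes that TRIM ligases act on, 6 fell and 1 rose, against 6.47% and 5.84% of all tested genes, with a median of -0.01. Dhx58, encoding the RNA sensor LGP2, fell 3.86-fold (log2 -1.95 ± 0.16), Irf7, the interferon response factor, 3.25-fold and Nlrp3, the inflammasome sensor, 3.12-fold. Ddx58, encoding RIG-I, the target of Trim25, also fell, and Traf6, the ligase that RANK recruits, was the one that rose. Irf7 and Ifih1 stand in this list and the previous one. Of 14 E2 enzymes 1 rose and 0 fell, near the 5.84% of all tested genes called higher, with a median of -0.0011. The riser was Ube2v2, a partner of Ube2n in making lysine-linked ubiquitin chains, with 2.36, 3.06 and 4.0 FPKM at day 5, against 1.44, 1.33 and 1.55 FPKM at day 0 (log2 1.06 ± 0.16, adjusted p = 2.32e-04). Its call was lost without day 5 replicate 3 (0.86).

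TRIM-type proteins that carry other names moved in both directions. Of 5 tested, Mefv was called higher (5.84% of all tested genes were) and 3 were lower on the adjusted p alone (28.8% were). Mefv, also known as TRIM20, encodes pyrin, an inflammasome sensor of myeloid cells. It had 7.41, 6.05 and 6.39 FPKM at day 5, against 1.75, 1.5 and 1.66 FPKM at day 0, a 3.86-fold rise (log2 1.95 ± 0.13, adjusted p = 2.42e-07). For Rnf135, a RIG-I ligase with a SPRY domain, the log2 difference was -0.80 ± 0.12 (adjusted p = 1.77e-04). Mid1, a microtubule-bound ligase, had one of -0.72 ± 0.13, and Pml, the organiser of nuclear bodies, one of -0.28 ± 0.09.

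**Figure D5:**
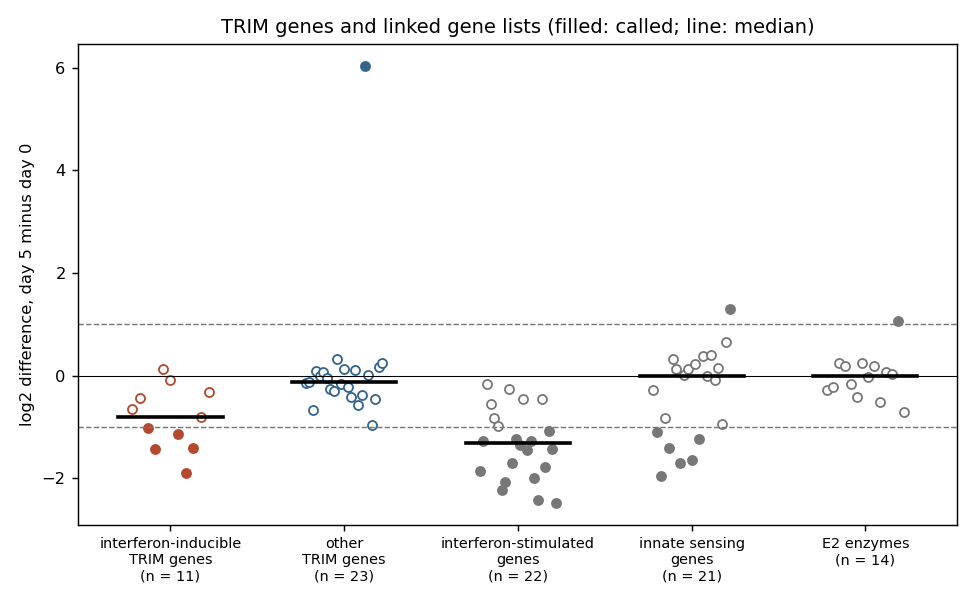
Log2 difference (y axis, day 5 minus day 0) of each tested gene in 5 lists, filled where called, with the list's median as a line and dashed lines at -1 and 1. The medians are -0.81 for the interferon-inducible TRIM genes, -0.13 for the other TRIM genes and -1.32 for the interferon-stimulated genes.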

How the data were processed

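RNA was sequenced in 6 mouse libraries. Libraries were strand-marked with dUTP after poly(A) selection and read in pairs on an Illumina NovaSeq, per the labels' protocols. Tools in the submitters' processing notes are HISAT2, StringTie, fastp and edgeR, with no version, and the build given there is the human GRCh38. The gene identifiers are mouse, and 28722 of 28795 lie on the same chromosome in GENCODE M21 (GRCm38). Per the file headers, the deposited table holds counts and FPKM per library. The counts the authors deposited are whole numbers and were handled as estimated counts (an estimated count need not be a read number), since small values pile up at multiples of 4 and the ratio of count to FPKM differs between libraries by nearly the same factor for every gene. Before deposit the authors scaled FPKM for length and depth. Use of strand in counting: not given in the sources.

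Counts were scaled by TMM and tested with edgeR 4.0.16 (R 4.3.3), day 5 minus day 0, over the 11908 genes with at least 1 FPKM in at least 3 libraries. SE is the log2 difference over the root of the F statistic. Raw counts had been planned for; the same test was kept. On data simulated from the day 0 means with edgeR's dispersions 100 of 100 genes with a simulated log2 change of 1.5 were called. No change was simulated nearer to the size threshold or in genes with few day 0 counts, so the simulation does not cover such calls. Counting error of pairs of libraries was exceeded in each (smallest chi-square per degree of freedom 5.73), so none was counted as a repeat. Correlations of deviations were -0.075, 0.23 and 0.064 for libraries of equal replicate number, against -0.20 to 0.12 for the other pairs. With 3 libraries per day these values cannot settle whether replicate numbers pair the libraries, and the main test did not pair them. Alternatives were limma 3.58.1, DESeq2 1.42.0, other filters, scalings, pseudocounts and thresholds, left-out libraries, a replicate block and, added after seeing the data, counts divided by 4.

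Members, lists and the rule for named genes (called members, those past the adjusted p, the 8 most abundant, 3 role lists and up to 3 called genes per pathway list) were chosen with earlier results of these data known. Krt14, Krt5, Ckm and some pathway genes were named after their values were seen. Exon overlaps and shared 75-base words come from GENCODE M21, promoters from RefSeq (GRCm38.p6).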

Additional observations from a re-analysis of the deposited data

How the results depend on the processing

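The 6 called TRIM genes kept their direction under all 21 alternatives. Trim21, Trim34a, Trim30d and Trim54 kept their call in all but limma on log2(FPKM + 5), which called 0 TRIM genes (0 higher, 0 lower, with 17 past the adjusted p alone) and 452 genes in all (251 higher, 201 lower), because that pseudocount shrinks differences of low genes. Trim30a also lost it on log2(FPKM + 1) (-0.95), where 3 TRIM genes were lower and 964 genes were called (435 lower). Trim14 lost it in 10 of the 21, with the smallest value -0.32. Without a filter 3 TRIM genes were higher (Trim29, Trim54 and Trim72) and 6 lower (adding Trim30c and Trim67, without Trim14). With filterByExpr 2 were higher and 7 lower (adding Trim30b, Trim30c and Trim67, without Trim14), and with a mean of 0.3 FPKM 2 higher and 6 lower (adding Trim30c), and 2303 and 2366 genes were called without a filter and with filterByExpr (1244 and 1234 higher). A threshold of 1.5-fold called 10 TRIM genes (9 lower) and 3202 genes (1528 higher, 1674 lower), and glmTreat 2341 (1113 higher, 1228 lower). Leaving out 1 library gave 5 to 7 TRIM genes called (4 to 6 lower, 1 higher), 14 to 17 past the adjusted p, and 1446 to 1525 genes called (688 to 754 higher, 726 to 795 lower). The replicate block called 6 TRIM genes (18 past the adjusted p) and 1470 genes, and changed no call of a TRIM gene, though Trim8 and Trim46 lost the adjusted p. Counts divided by 4 called the same 6 TRIM genes. Without scaling factors the median of all genes moved by 0.058. For members under 1 FPKM, depth limits what could be seen.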
